A study of Schmidtea mediterranea with 36 samples.

Results

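At 7 days of starvation (7dS), X2 cells were compared with Xins cells of the planarian Schmidtea mediterranea. X2 is a FACS population in which G0/G1 stem cells and progeny of stem cells are mixed, and Xins is the population of differentiated cells. The members are the 8 libraries that the labels name X2 or Xins at 7dS (4 replicates of each), of 36 libraries in the series. The values of each library were set to sum to 1000000 and the tables of both populations were joined by transcript, and 17690 of 26558 transcripts had a mean of at least 1 over these 8 libraries and were tested.

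All groups came from intact animals of the asexual strain, with no RNAi and no other treatment than the length of starvation (1, 7 or 30 days, written 1dS, 7dS and 30dS). Planarians were cut up and dissociated with papain, and cells were stained with calcein, which marks the cytoplasm, and Hoechst, which marks DNA, so that X1 (the stem cells with replicating or doubled DNA, S and G2/M), X2 and Xins could be gated. Dead cells were discarded with propidium iodide. The gates rest on dye signal and not on a marker gene, so X2 and Xins are each a mixture of cell types. A lower level of a transcript in such a mixture can come from fewer cells that use it or from less RNA per cell, and these cannot be told apart in bulk libraries.

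Planarian stem cells, the neoblasts, are the only dividing cells of the adult body, and their post-mitotic progeny pass through X2 before they reach the differentiated cells of Xins. Proteins made in this flow of cells need chaperones: the TRiC/CCT ring folds actin, tubulin and other proteins in the cytosol, HSP70 and HSP90 act on a wide range of clients, and the unfolded protein response (UPR) adjusts the folding capacity of the endoplasmic reticulum (ER) through factors such as xbp1 and atf6 and chaperones such as BiP. Translation factors and aminoacyl-tRNA synthetases set how much protein is made.

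The unit of every level below is the authors' normalized TPM after the rescaling, and 4 values in a row are those of replicates 1, 2, 3 and 4. A log2 difference is X2 minus Xins on log2(level + 1) with its standard error, a scale that makes changes of weakly expressed transcripts look smaller, and an adjusted p is a Benjamini-Hochberg value over all 17690 transcripts from limma with an intensity trend, called at q 0.01. Read numbers cannot be had from TPM, so neither the depth nor the counting error of a value is known. The number of planarians behind a replicate at 7dS is not given in the sources used here, so p-values measure only the spread between these libraries, which may be partly technical. Capitalised symbols are the best match in another species, mostly human, that the study's tables give for a transcript, and reads of close paralogs may be shared between them.

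The 8 libraries fell into the labelled populations. The first principal component of the tested transcripts held 74.0% of the variance and separated X2 from Xins. Libraries correlated at r = 0.917 to 0.982 within X2, 0.891 to 0.971 within Xins and 0.661 to 0.784 between the populations. The second component held 18.4% and followed the replicate number, with replicate 4 lowest in both populations and replicates 1 and 3 highest. The deposited totals ran from 704743 to 1204583 in X2 and from 638389 to 1157053 in Xins (exact two-sided permutation test, p = 0.8), and transcripts listed at 0 numbered 2063 to 3924 and 1918 to 3247 (exact permutation p = 0.514). The 10 most abundant transcripts held 8.0% to 11.5% of the sum in X2 and 5.95% to 11.1% in Xins (exact permutation p = 0.971). The median level of the tested transcripts was lower in X2, at 3.93 to 7.56 against 8.01 to 15.96 in Xins (exact permutation p = 0.0286, the smallest that 4 against 4 libraries allow).

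Of the 17690 transcripts, 1471 were higher in X2 (8.32%) and 5293 were lower (29.9%). The higher transcripts had a median level of 50.2 in X2 against 15.3 in Xins and a median log2 difference of 1.61. The lower ones had a median level of 2.56 in X2 against 19.9 in Xins and a median of -2.20. Over all tested transcripts the median level was 5.62 in X2 and 12.2 in Xins. A log2 difference above 3 in size was found for 131 of the higher and 1066 of the lower transcripts, and one above 5 for 18 and 163. No transcript was listed at 0 in all 4 Xins libraries and at 1 or more in all 4 X2 libraries, whereas 18 were listed at 0 in all X2 libraries and at 1 or more in all Xins libraries. Every X2 library lay above every Xins library for 1993 transcripts (11.3%) and below for 6161 (34.8%).

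**Figure D1:**
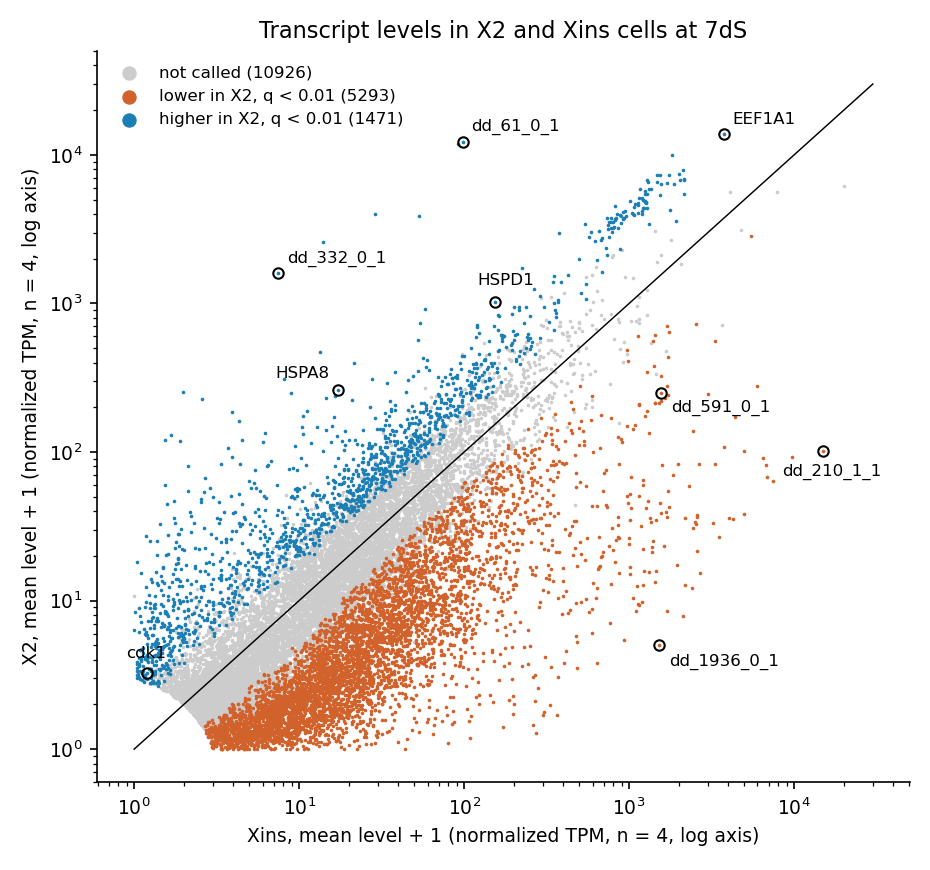
Mean level plus 1 of each of the 17690 tested transcripts in Xins (x axis) and X2 (y axis) at 7dS, in normalized TPM on log axes, 4 libraries each. Blue points are the 1471 transcripts higher in X2 and orange points the 5293 lower at q 0.01, the line marks equal levels, and rings mark transcripts named in the text: those far above the line include dd_Smed_v6_332_0_1 and dd_Smed_v6_61_0_1, and those far below it include dd_Smed_v6_1936_0_1.

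The balance of higher and lower transcripts depended on the scaling. With equal totals the median log2 difference of all tested transcripts was -0.53. After median-of-ratios scaling it was 0.07, and 3542 transcripts were higher (20.4%) and 4235 lower (24.4%) of 17332 tested (45.5% of calls higher, against 21.7%). A list with a median near 0 in the values below therefore had a median above that of all transcripts. The replicate numbers were taken to pair the libraries at 7dS, which the labels do not state. With the number as a block 3508 transcripts were higher (19.8%) and 8921 lower (50.4%).

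The largest differences were in transcripts that the study's tables do not name. The transcript dd_Smed_v6_332_0_1 was at 1145, 1927, 881 and 2416 in X2 and at 3.65, 7.25, 3.68 and 11.3 in Xins. Its log2 difference was 7.75 ± 0.40, adjusted p = 6.13e-07. In X1 it was at 53.7 ± 24.7 (SD, n = 4), so of these populations X2 had the highest mean. Among the called transcripts that are higher in X2 and carry no symbol, dd_Smed_v6_61_0_1 was the most abundant, at 11890.1, 13688, 15038 and 8569.8 in X2 and 35.9, 98.1, 183 and 71 in Xins (7.17 ± 0.43, adjusted p = 1.15e-06), and at 546 ± 64.6 in X1. In the other direction, dd_Smed_v6_1936_0_1 was at 2.53, 4.23, 5.59 and 3.69 in X2 and at 1821, 1420.3, 1670.2 and 1135 in Xins (-8.25 ± 0.25, adjusted p = 1.2e-07). The most abundant lower one, dd_Smed_v6_210_1_1, was at 70, 92.4, 117 and 125 in X2 and at 10571, 35005, 5962 and 8648 in Xins (-6.88 ± 0.48, adjusted p = 2.76e-06), with the widest spread in Xins, where replicate 2 was the highest. These 4 were picked among transcripts with no overlap between populations, so their lack of overlap is not a result.

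The kinase cdk1 and 6 transcripts of the mitotic S phase list were higher in X2 than in Xins. cdk1, a kinase needed for mitosis, was at 2.13, 3.1, 1.2 and 2.67 in X2 and at 0.067, 0.27, 0.268 and 0.193 in Xins, with no overlap and a log2 difference of 1.42 ± 0.26, adjusted p = 0.00103. Its mean in Xins was 0.199, so it passed the filter of a mean of at least 1 only through X2. In X1 it was at 41.4, 74.4, 47.3 and 66.4, a log2 difference X1 minus X2 of 4.15 (adjusted p = 3.26e-07), and over all transcripts 5.34% were higher and 15.8% lower in X1 than in X2. Such comparisons of X1 with X2 use the same X2 libraries as those of X2 with Xins. Of the 19 transcripts of the GO list mitotic S phase, which carries out DNA replication before division, 17 were tested. Of these 6 were higher in X2 and none was lower (against 8.32% and 29.9% of all transcripts), and the median was 0.81 against -0.53 for all transcripts. In the fit with the replicate block 15 were higher and 2 lower (against 19.8% and 50.4% of all transcripts). The count was 4 without X2 replicate 1, 2 or 4 or Xins replicate 1, 2 or 3. The list's summed level was 1003 to 1561 in X2 and 619 to 909 in Xins. The member with the lowest adjusted p among those named, dd_Smed_v6_7971_0_1, was at 97.1, 96.9, 73.4 and 84.4 in X2 and 40.9, 41, 42.3 and 39.9 in Xins (1.07 ± 0.18, adjusted p = 0.000731), and at 92.1 ± 4.89 in X1, where the difference from X2 was within the spread (adjusted p = 0.789). Next came dd_Smed_v6_1583_0_1 (1.01 ± 0.19, adjusted p = 0.00141) and dd_Smed_v6_2665_0_1 (1.01 ± 0.20, adjusted p = 0.00169). For both the log2 difference X1 minus X2 was -0.09 and was not called (adjusted p = 0.762 and 0.79). The study chose the mitotic S phase list on its X1 libraries, as it did the other GO lists below. The folding, translation and synthetase lists below rest on its results from X1 or from whole animals with RNAi. None was chosen on X2 or Xins, and their members need not represent their families. The only muscle marker with a symbol here, bt (a giant muscle kinase known from flies), was at 4.77, 8.7, 5.66 and 14.3 in X2 and 11.5, 31.5, 16.1 and 67.5 in Xins. Its log2 difference was -1.60 ± 0.52, adjusted p = 0.0272, so it was not called, and with the block it was called lower (adjusted p = 0.000106). Other markers of stem cells, epidermal progenitors, gut or neurons were not analysed here because the tables used pair no transcript with them.

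TRiC is a ring of 8 subunits in the cytosol. All 8 had a higher mean in X2 than in Xins, and 3 passed the test (against 8.32% of all transcripts called higher). cct6 was at 399, 340.3, 281 and 349 in X2 and 179, 142, 149 and 162 in Xins (1.10 ± 0.19, adjusted p = 0.000691). cct8A was at 269, 330.0, 206 and 395 and 119, 137, 101 and 172 (1.16 ± 0.26, adjusted p = 0.00335). cct2 was at 202, 270.5, 185 and 310.4 and 105, 126, 92.5 and 153 (1.01 ± 0.24, adjusted p = 0.00549). In these 3 every X2 library lay above every Xins library (against 11.3% of all transcripts). The call of cct8A was lost without X2 replicate 2 or Xins replicate 1 (adjusted p up to 0.0129), and that of cct2 without X2 replicate 2 or 4 or Xins replicate 1, 2 or 3 (up to 0.0201). The number of called subunits ran from 1 (without X2 replicate 2 or Xins replicate 1) to 4 (without Xins replicate 4).

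The other 5 TRiC subunits overlapped between the populations. cct1A was at 145, 321, 97.8 and 404 in X2 and 43.7, 104, 34.7 and 123 in Xins, and had the largest log2 difference of the 8, 1.62 ± 0.53, adjusted p = 0.0266. cct3A was at 253, 344, 212 and 477 and 126, 173, 106 and 242 (0.99 ± 0.32, adjusted p = 0.027). Both populations showed their highest values in replicate 4 and their lowest in replicate 3 for these genes, so the ranges overlapped although X2 was higher in 4 of 4 pairs of replicates with the same number. The smallest difference was that of cct5, at 343, 482, 223 and 506 in X2 and 255, 320.4, 180.5 and 378 in Xins (0.43 ± 0.32, adjusted p = 0.292). cct4B had a log2 difference of 0.79 ± 0.30, adjusted p = 0.0482, and cct7 of 0.57 ± 0.35, adjusted p = 0.213. With the replicate block all 8 subunits were higher (adjusted p from 1.26e-06 for cct1A to 0.000853 for cct5), and the same 8 were called after median-of-ratios scaling. The median of the list was 1.00, against -0.53 for all transcripts, and its summed level was 1379 to 2832 in X2 and 784 to 1483 in Xins.

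Levels of TRiC in X1 were near those in X2. The mean level in X1 was 316 ± 73 for cct6, 342 ± 121 for cct3A and 270.5 ± 72.8 for cct5, against 342 ± 48.6, 322 ± 117 and 389 ± 132 in X2. None of the 8 subunits passed the test between X1 and X2 (adjusted p from 0.278 for cct5 to 0.891 for cct4B), and the log2 difference X1 minus X2 ran from -0.49 for cct5 to 0.32 for cct7. With the replicate block cct5 was lower in X1 than in X2 (adjusted p = 0.000339).

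**Figure D2:**
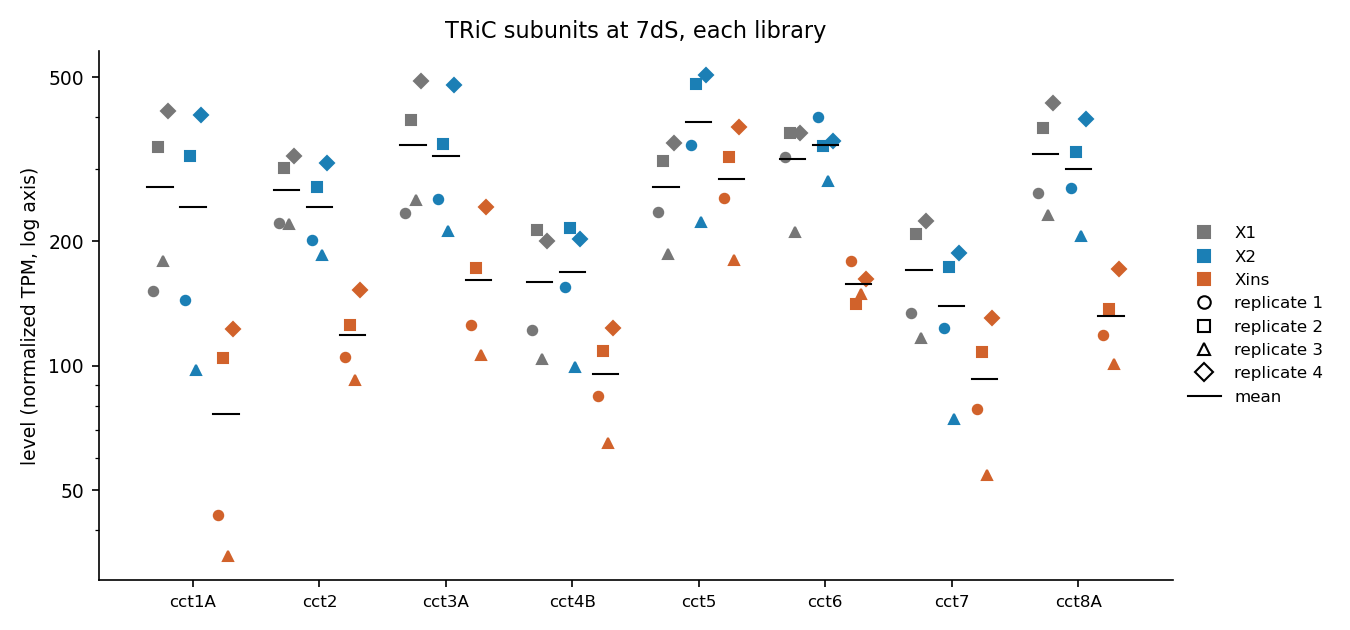
Level of the 8 TRiC subunits in each of the 12 libraries of 7dS (y axis, normalized TPM, log axis), with X1 in grey, X2 in blue and Xins in orange, 1 symbol per replicate number and a bar at the mean of 4. The mean of X2 lies above that of Xins for each subunit (cct6: 342 against 158), and replicates 2 and 4 lie above 1 and 3 for most subunits in both populations.

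Among the listed transcripts with a symbol the largest differences on the log2(level + 1) scale were in HSP70, which binds unfolded stretches of proteins. HSPA8 (dd_Smed_v6_1459_0_1) was at 166, 291, 157 and 426 in X2 and 7.08, 19, 12.2 and 26.8 in Xins (3.94 ± 0.43, adjusted p = 4.04e-05). A second HSPA8 transcript, dd_Smed_v6_1332_0_1, was at 94.9, 162, 89.7 and 234 and 5.69, 11.7, 6.36 and 14 (3.78 ± 0.38, adjusted p = 2.37e-05). In X1 these were at 531 ± 191 and 293 ± 97. Of 6 listed cytosolic HSP70 transcripts 5 were tested, 2 were higher and none was lower (against 8.32% and 29.9% of all transcripts). Among the other 3 was dd_Smed_v6_320_0_1, also matched to HSPA8, at a mean of 287 ± 162 in X2 and 349.5 ± 211 in Xins (-0.27 ± 0.52, adjusted p = 0.704). With the replicate block, dd_Smed_v6_320_0_1 was called lower (adjusted p = 0.00655) and the list counted 3 higher and 2 lower (against 19.8% and 50.4% of all transcripts). After median-of-ratios scaling dd_Smed_v6_320_0_1 changed sign (0.50).

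The HSP90 system, which finishes the folding of kinases and receptors, had 5 tested members with log2 differences of 0.52 to 1.90. Of these 1 was called higher (against 8.32% of all transcripts). CHORDC1, a co-chaperone, was at 303, 176, 282 and 224 in X2 and 115, 63.4, 113 and 79.6 in Xins (1.41 ± 0.26, adjusted p = 0.00129). HSP90AA1 (dd_Smed_v6_56_0_1) had a larger difference, with means of 1082 ± 648 and 291 ± 179 (1.90 ± 0.55, adjusted p = 0.0155), and did not overlap between populations, but it fell short of the threshold. With the block all 5 were higher (adjusted p from 6.29e-07 for HSP90AA1 to 0.000756 for ST13). Of 5 members of the cytosolic HSP40 list, proteins that hand clients to HSP70, 1 was lower and none was higher (against 29.9% and 8.32% of all transcripts). The lower one, LOC100863952 (dd_Smed_v6_5863_0_1), is described as like DNAJ homolog subfamily C member 16 and also stands in the redox homeostasis list. It was placed in the HSP40 list by name, and a location in the cytosol was not checked. Its level was 18.3, 15.4, 12.1 and 22.8 in X2 and 46.1, 48.8, 36.3 and 60.4 in Xins (-1.44 ± 0.26, adjusted p = 0.000898, and -0.70 with an adjusted p of 0.024 after median-of-ratios scaling). The median of the 5 HSP40 members was -0.03, and with the block 2 were higher and 2 lower (against 19.8% and 50.4% of all transcripts).

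Of 5 prolyl isomerases, which turn proline bonds during folding, 4 were higher and none was lower (against 8.32% and 29.9% of all transcripts), with a median of 1.23. PPIH was at 155, 90.9, 111 and 108 in X2 and 39.5, 23.9, 34.6 and 32.9 in Xins (1.79 ± 0.24, adjusted p = 0.00014). FKBP1B (1.23 ± 0.20, adjusted p = 0.00047) and FKBP2 (1.10 ± 0.18, adjusted p = 0.000547) were also higher. For these 3 and for PPIB every X2 library lay above every Xins library (against 11.3% of all transcripts). PPIB, an isomerase of the ER, was at 281, 429, 228 and 452 in X2 and 94.9, 157, 87.8 and 187 in Xins (1.41 ± 0.32, adjusted p = 0.00401), and its call was lost without X2 replicate 2 or Xins replicate 1 or 3 (adjusted p up to 0.0151). PPIB was at 172 ± 34.3 in X1, and its log2 difference X1 minus X2 of -0.97 was not called (adjusted p = 0.0231, and 1.01e-05 with the block).

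Mitochondrial chaperones split. HSPD1 (dd_Smed_v6_141_0_1), the HSP60 ring of the mitochondrial matrix, was at 728, 1236, 561 and 1594 in X2 and 105, 181, 85.1 and 237 in Xins (2.75 ± 0.41, adjusted p = 0.000274), and at 1492 ± 503 in X1. TRAP1, the mitochondrial HSP90, was at 183, 230.4, 146 and 294 and 60.1, 82.2, 52.3 and 102 (1.51 ± 0.29, adjusted p = 0.00134). DNAJC27, which the study's tables place with this group (not checked here), was lower: it was at 10.1, 10.4, 8.48 and 8.57 in X2 and 30.4, 40.4, 35.4 and 54.1 in Xins (-1.96 ± 0.24, adjusted p = 7.38e-05), and at 0.651 ± 0.439 in X1. The 6 tested members thus counted 2 higher and 1 lower (against 8.32% and 29.9% of all transcripts), with a median of 1.43. With the block 5 were higher and 1 lower (against 19.8% and 50.4% of all transcripts). Of the 3 others, HSPA9, the mitochondrial HSP70, had means of 539.7 ± 377 in X2 and 131 ± 86 in Xins (2.01 ± 0.61, adjusted p = 0.0189, and an adjusted p of 6.20e-07 with the block).

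In the UPR and ER folding list the share called higher was near that of all transcripts, and the share called lower was smaller. Of 23 listed transcripts 20 were tested, 2 were higher and 1 was lower (against 8.32% and 29.9% of all transcripts), and their median log2 difference was 0.21 against -0.53 for all transcripts. When the replicate number was blocked, 9 were higher and 1 was lower (against 19.8% and 50.4% of all transcripts). After median-of-ratios scaling 9 were higher and none was lower (against 20.4% and 24.4% of all transcripts), with a median of 0.97 against 0.07. MLEC, a lectin of the ER, was at 135, 97.6, 91.2 and 121 in X2 and 71.2, 54.6, 55 and 69 in Xins (0.82 ± 0.21, adjusted p = 0.00801), and its call was lost without any one library other than X2 replicate 3 (adjusted p up to 0.0287). The second higher member, P4HB (dd_Smed_v6_13521_0_1), a protein disulfide isomerase named after its values were seen, had means of 15.4 ± 7.75 and 0.762 ± 0.33 (3.11 ± 0.36, adjusted p = 5.95e-05). It passed the filter of a mean of at least 1 only through X2. A far more abundant P4HB transcript, dd_Smed_v6_250_0_1, overlapped between populations and was not called. Its means were 755 ± 380 in X2 and 381 ± 190 in Xins (0.97 ± 0.46, adjusted p = 0.109, and 1.86e-05 with the block). The lower one was pdia13, also a protein disulfide isomerase, at 25.9, 37.1, 18.8 and 32.3 in X2 and 55.3, 77.8, 45.9 and 71.9 in Xins (-1.12 ± 0.27, adjusted p = 0.00567). The call of pdia13 was lost after median-of-ratios scaling (log2 -0.37, adjusted p = 0.228) and without X2 replicate 1 or 3 or Xins replicate 1, 2 or 4 (adjusted p up to 0.0216).

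xbp1, the transcription factor of the IRE1 branch of the UPR, was at 347, 596, 401 and 597 in X2 and 204, 342, 244 and 338 in Xins. Every X2 library was above every Xins library, but the log2 difference of 0.77 ± 0.26, adjusted p = 0.0321 missed the threshold. With the replicate block xbp1 was called (adjusted p = 1.95e-05), as it was after median-of-ratios scaling (1.54, adjusted p = 0.000663). In X1 xbp1 was at 78.9, 111, 81.6 and 123, a log2 difference X1 minus X2 of -2.27 (adjusted p = 2.00e-05), so its highest mean was in X2. atf6, the membrane-bound factor of another UPR branch, was at 33.4, 71.7, 33.3 and 85.5 in X2 and 32.9, 65.8, 27.2 and 73.3 in Xins (0.16 ± 0.42, adjusted p = 0.78), and at 15.8 ± 5.87 in X1, with a log2 difference X1 minus X2 of -1.70 (adjusted p = 0.00632). These 2 factors were thus both lower in X1 than in X2, and atf6 was not called between X2 and Xins with or without the block (adjusted p = 0.0607 with it, but 2.32e-05 with it after median-of-ratios scaling).

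ER chaperones overlapped between the populations. bip-1, an HSP70 of the ER, was at 184, 443, 134 and 466 in X2 and 154, 391, 139 and 487 in Xins (0.08 ± 0.52, adjusted p = 0.918). Within each population replicates 2 and 4 were high and 1 and 3 low. calr, a lectin chaperone, was at 368, 659, 224 and 701 and 359, 679.5, 237 and 678 (-0.01 ± 0.44, adjusted p = 0.987), and its sign turned after median-of-ratios scaling (0.76, adjusted p = 0.0838). bip-2 was at 40.8, 70.8, 31 and 92.6 and 21.1, 53.6, 24.2 and 47.1, higher in X2 in 4 of 4 pairs (0.65 ± 0.41, adjusted p = 0.218, and an adjusted p of 0.00217 with the block). The log2 differences of dnajb9, dnajc3 and dnajb11, co-chaperones of BiP, were 0.07, 0.07 and 0.26 (adjusted p = 0.867, 0.926 and 0.646). Those of pdia3 and pdia12 were 0.04 and -0.14 (adjusted p = 0.97 and 0.672), and that of pdia12 was 0.61 after median-of-ratios scaling. With that scaling dnajb9 was called higher (0.82, adjusted p = 0.00451), as was bip-2 (1.41, adjusted p = 0.0011). With that scaling and the block together, bip-1, calr, dnajc3, dnajb11, pdia3 and pdia12 were called higher too (adjusted p = 1.8e-05, 2.4e-05, 3.06e-05, 8.18e-06, 0.000265 and 9.92e-05). Neither that scaling alone nor the block alone gave a call for any of them, so whether they differed depended on both choices. Both bip-3 transcripts had a mean under 1 and were not tested. They were at 0.0838 ± 0.0668 and 0.104 ± 0.121 in X2 and at 0.640 ± 0.370 and 0.568 ± 0.355 in Xins (SD, n = 4).

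**Figure D3:**
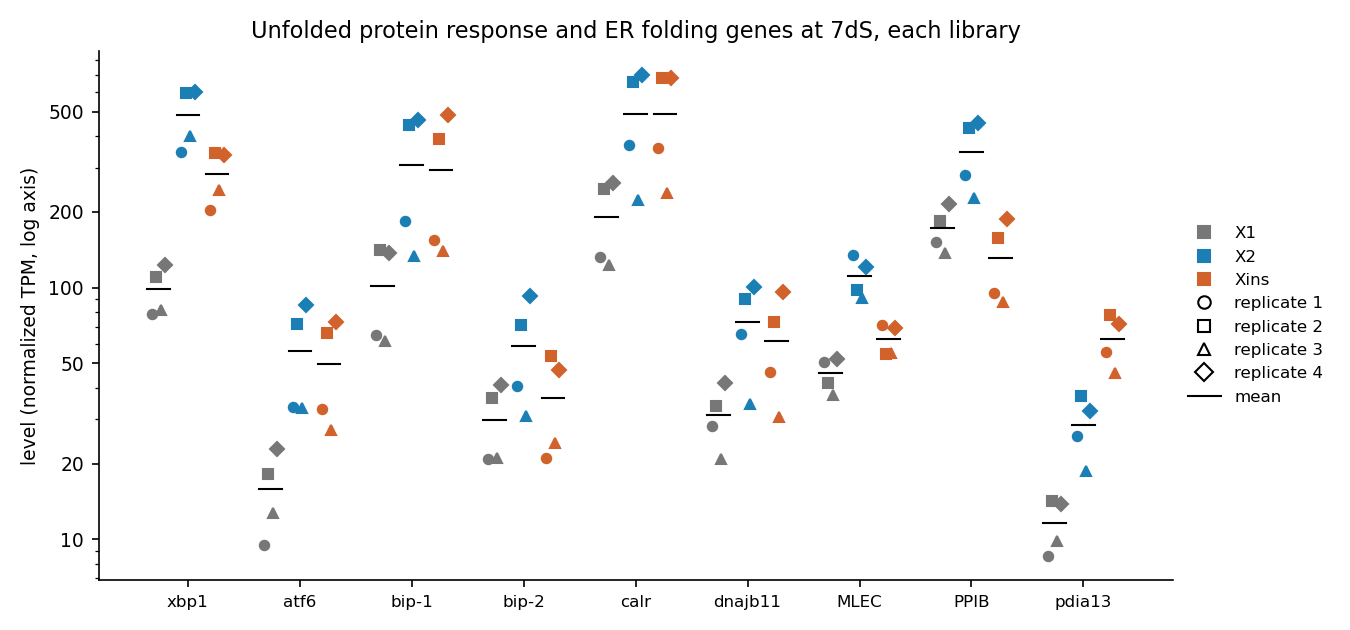
Level of 9 genes of the UPR and of ER folding in each of the 12 libraries of 7dS (y axis, normalized TPM, log axis), with X1 in grey, X2 in blue and Xins in orange, 1 symbol per replicate number and a bar at the mean of 4. xbp1 has its highest mean in X2 (485), bip-1 and calr have nearly the same mean in X2 and Xins, and pdia13 is lowest in X1 and highest in Xins (62.7).

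Translation elongation factors of the eEF1 complex, which brings aminoacyl-tRNA to the ribosome, were higher in X2. EEF1A1 (dd_Smed_v6_30_0_1) was the most abundant transcript of X2, at 15202, 13833, 12026 and 14281, and was at 4198, 3416, 3768 and 3683 in Xins (1.88 ± 0.19, adjusted p = 2.75e-05). Its level in X1 was 12999.9 ± 2558, and its difference from X2 was within the spread (adjusted p = 0.723). EEF1B2, which recharges EEF1A1, was at 2858, 2386, 3386 and 1972 and 626, 468, 951 and 451 (2.12 ± 0.28, adjusted p = 0.000144), and EEF1G, which anchors it, at 1780.2, 2048, 2503 and 1648 and 458, 444, 685 and 397 (2.02 ± 0.23, adjusted p = 5.57e-05). Of 6 listed transcripts 4 were tested, and of these 3 were higher and none was lower (against 8.32% and 29.9% of all transcripts). The fourth, dd_Smed_v6_6388_0_1, was also matched to EEF1A1 and had means of 17 ± 7.37 and 16 ± 7.12 (0.08 ± 0.38, adjusted p = 0.877).

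eIF3, the scaffold on which the small ribosomal subunit meets mRNA, had 13 tested of 15 listed transcripts. Of these 7 were higher and 1 lower (against 8.32% and 29.9% of all transcripts), with a median of 1.15. EIF3K was at 919, 585, 871 and 599 in X2 and 286, 162, 296 and 176 in Xins (1.71 ± 0.27, adjusted p = 0.000446). EIF3G was matched to a pair of transcripts that went opposite ways: dd_Smed_v6_5500_0_1 was at 74.3, 111, 69.6 and 113 in X2 and 20.4, 31.3, 21 and 33 in Xins (1.76 ± 0.26, adjusted p = 0.000287), while dd_Smed_v6_15937_0_1 was at 3.09, 3.27, 1.78 and 3.79 and 18.5, 27.9, 16.1 and 28.4 (-2.56 ± 0.29, adjusted p = 5.03e-05). Neither overlapped between populations, and after median-of-ratios scaling both kept their direction (2.51 and -1.91). EIF3D, EIF3F, EIF3H, EIF3I and EIF3M were also higher, by 1.01 (EIF3H) to 1.39 (EIF3I) on the log2 scale. Between 6 and 10 members were called higher when 1 library was left out (10 without X2 replicate 3). With the block 11 were higher and 1 lower (against 19.8% and 50.4% of all transcripts).

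Of 7 tested (9 listed) transcripts of eIF2, which carries the initiator tRNA, and eIF2B, which reloads it with GTP, 1 was higher and none was lower (against 8.32% and 29.9% of all transcripts). EIF2B2 was at 33, 32.1, 25.6 and 29.6 in X2 and 14.5, 14.7, 15.2 and 16.7 in Xins (0.93 ± 0.20, adjusted p = 0.00282), a call lost without X2 replicate 1 or 2 or Xins replicate 1 or 2 (adjusted p up to 0.0129). With the block 5 were higher and none was lower (against 19.8% and 50.4% of all transcripts). Among 9 tested (10 listed) other translation factors 1 was higher and 1 lower, beside the same shares of all transcripts. These are the remaining entries of the study's translation complexes, COPS5 and EIF2C2 included, and a role of each in translation was not checked. EIF2A was higher, at 62 ± 8.42 against 34 ± 7.44 (0.86 ± 0.22, adjusted p = 0.00828), and its call was lost without any one library other than Xins replicate 3 (adjusted p up to 0.0304). DDX3X (dd_Smed_v6_3817_0_1), an RNA helicase, was lower, at 22.8, 25.1, 19.3 and 36.5 in X2 and 54.7, 66.9, 49.4 and 72 in Xins (-1.22 ± 0.25, adjusted p = 0.00201). With the block this list counted 5 higher and 2 lower. The call of DDX3X was lost after median-of-ratios scaling (-0.47, adjusted p = 0.0834).

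Aminoacyl-tRNA synthetases load amino acids on tRNA. Those whose description does not name mitochondria are called cytosolic here, and their location was not checked. Of 21 listed cytosolic synthetases 19 were tested, and 4 were higher (SARS, MARS, FARSB and LARS) and none was lower, with a median of 0.81. Over all transcripts 8.32% were higher and 29.9% lower. MARS was at 81.5, 58.4, 70.5 and 68.3 in X2 and 30.4, 21, 26.1 and 23.3 in Xins (1.43 ± 0.21, adjusted p = 0.000238). SARS had a larger difference with more spread, at 45.2, 90.1, 24.6 and 95 and 10.9, 19.4, 6.63 and 23.4 (1.96 ± 0.49, adjusted p = 0.00713), and FARSB was at 65.4 ± 15.6 against 30.6 ± 5.8 (1.06 ± 0.24, adjusted p = 0.00434). The calls of SARS and FARSB were each lost without any one of X2 replicate 1, 2 or 4 or Xins replicate 1, 2 or 3 (adjusted p up to 0.0246 and 0.0159), and the list then counted 1 or 2 calls. With the block 15 were higher and 1 lower (WARS, adjusted p = 0.00177), against 19.8% and 50.4% of all transcripts. Of 12 mitochondrial synthetases 1 was higher, Yars2, at 31.6, 22.9, 29.2 and 25.6 in X2 and 13, 9.44, 13.3 and 12.9 in Xins (1.11 ± 0.22, adjusted p = 0.00187), a share near the 8.32% of all transcripts, and 8 were higher with the block (against 19.8%).

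**Figure D4:**
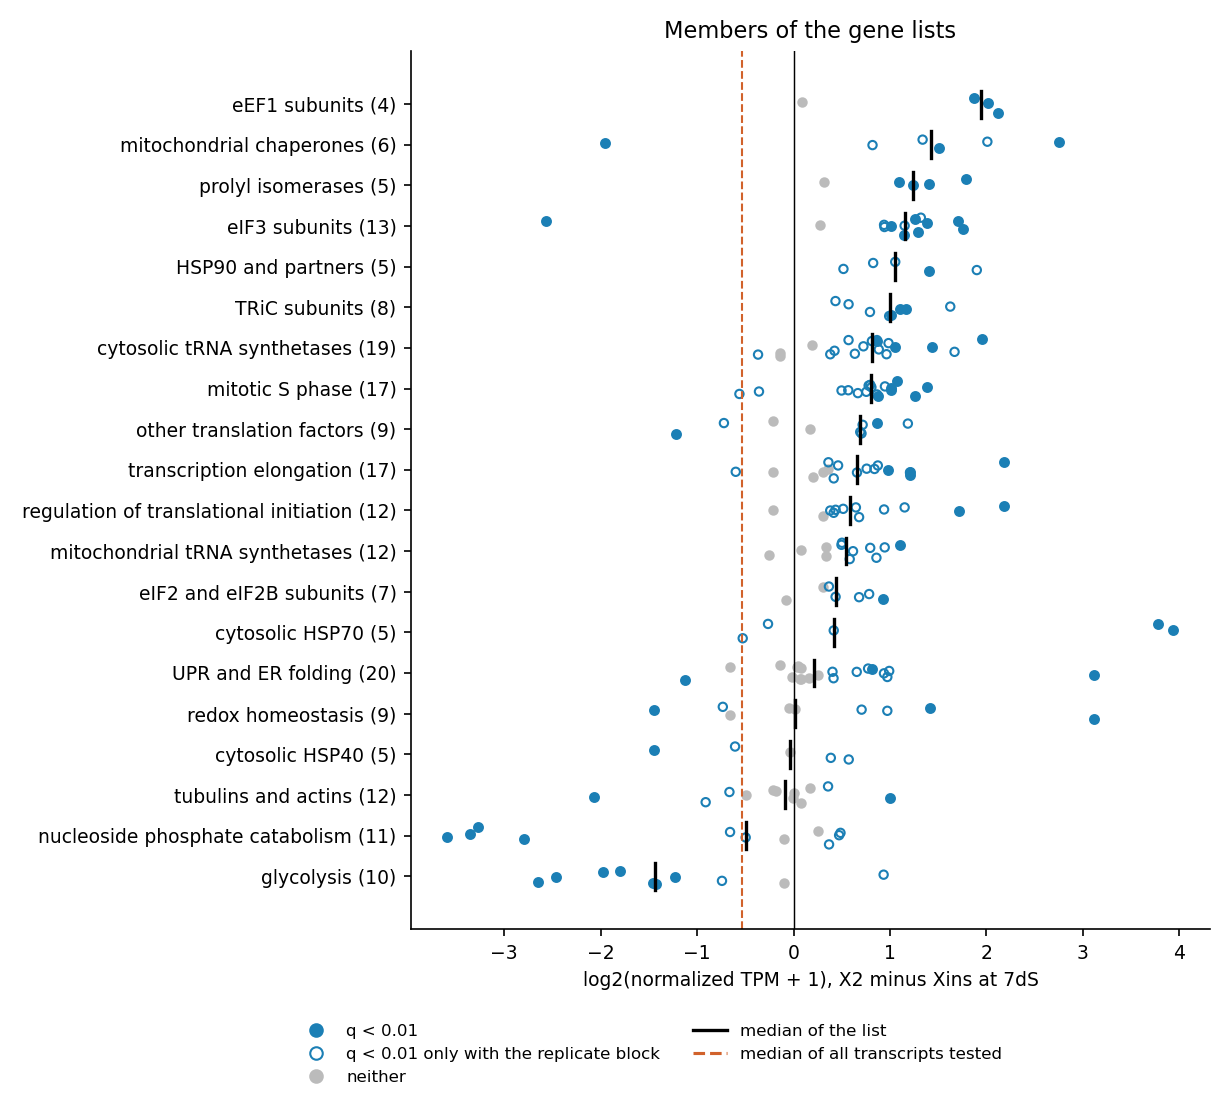
Log2 difference X2 minus Xins at 7dS (x axis, log2 of normalized TPM + 1) of each tested member of 20 gene lists (y axis, number tested in brackets). Filled blue points passed q 0.01, open points did so only with the replicate block, and grey points in neither fit; black bars are list medians and the dashed line is the median of all tested transcripts (-0.53). The medians run from 1.95 (eEF1 subunits) to -1.44 (glycolysis).

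Nuclear and regulatory GO lists had a few members higher in X2. Over all transcripts 8.32% were higher and 29.9% lower, and with the block 19.8% and 50.4%. Of 17 transcripts of transcription elongation 4 were higher and none was lower, with a median of 0.66, and with the block 12 were higher and 1 lower. The largest of them, dd_Smed_v6_4240_0_1, was at 58.1, 79.1, 35 and 93.6 in X2 and 9.87, 16.6, 8.65 and 19.5 in Xins (2.18 ± 0.36, adjusted p = 0.000562), followed by dd_Smed_v6_2035_0_1 (1.21), dd_Smed_v6_4346_0_1 (1.20) and dd_Smed_v6_6572_0_1 (0.98). Of 12 transcripts of the regulation of translational initiation 2 were higher and none was lower, with a median of 0.58, and 10 were higher with the block. dd_Smed_v6_8495_0_1 of this list was at 41.5, 28.3, 37.6 and 32.5 in X2 and 6.69, 4.39, 9.97 and 7.38 in Xins (2.18 ± 0.27, adjusted p = 8.39e-05), and at 130.4 ± 25 in X1. The other one, dd_Smed_v6_6639_0_1, was at 60.5 ± 18.9 in X2 and 17.4 ± 4.42 in Xins (1.72 ± 0.29, adjusted p = 0.000721). Of 9 tested (12 listed) members of redox homeostasis 2 were higher, P4HB (dd_Smed_v6_13521_0_1) and dd_Smed_v6_6836_0_1 (1.42 ± 0.24, adjusted p = 0.000678), and LOC100863952 was lower, with a median of 0.01. With the block 4 of these 9 were higher and 2 lower.

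Glycolysis, the breakdown of glucose to pyruvate, was the list with the most members lower in X2. Of 10 tested (12 listed) transcripts 7 were lower and none was higher (6 without Xins replicate 2), against 29.9% of all transcripts, and the median was -1.44. The largest difference was that of dd_Smed_v6_591_0_1, at 251, 311, 168 and 261 in X2 and 1221, 1782, 1211 and 2041 in Xins (-2.65 ± 0.26, adjusted p = 2.14e-05), and at 78.7 ± 31.1 in X1. The transcripts dd_Smed_v6_4738_0_1 (-2.47 ± 0.29, adjusted p = 5.72e-05) and dd_Smed_v6_605_0_1 (-1.98 ± 0.34, adjusted p = 0.000768) followed. The populations did not overlap for these 7 (every X2 library lay below every Xins library for 34.8% of all transcripts). After median-of-ratios scaling 3 were lower and 1 was higher, with a median of -0.68. The list's summed level was 1077 to 1617 in X2 and 3736 to 5615 in Xins.

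Of 11 tested (12 listed) transcripts of nucleoside phosphate catabolism, which breaks down nucleotides, 4 were lower (against 29.9% of all transcripts) and none was higher, and the median of -0.50 was close to that of all transcripts. The members of this list divided into these 4, with log2 differences of -2.80 to -3.59, and 7 others with differences from -0.66 to 0.49. The largest, dd_Smed_v6_14191_0_1, was at 0.716, 1.1, 0.478 and 1.81 in X2 and 16.9, 33.3, 11.3 and 40.7 in Xins (-3.59 ± 0.41, adjusted p = 5.47e-05). The others were dd_Smed_v6_8589_0_1 (-2.80), dd_Smed_v6_16337_0_1 (-3.36) and dd_Smed_v6_26758_0_1 (-3.27). None of these 4 overlapped between populations (every X2 library lay below every Xins library for 34.8% of all transcripts). Each of the 4 was still called lower after median-of-ratios scaling, where the list counted 4 lower and 2 higher, while with the replicate block it counted 6 lower and 3 higher (against 50.4% and 19.8% of all transcripts).

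Tubulins and actins, the main clients of TRiC and the building blocks of the cytoskeleton, formed a list of 12 tested transcripts that includes TBCA, a tubulin cofactor. Of these 1 was higher, a share near the 8.32% of all transcripts, and 1 lower (against 29.9%), with a median of -0.09. With the block 2 were higher and 3 lower (against 19.8% and 50.4% of all transcripts). The lower one was TUBB4B (dd_Smed_v6_640_0_1), at 35.1, 45.5, 26.3 and 26.5 in X2 and 147, 151, 98.3 and 175 in Xins (-2.07 ± 0.26, adjusted p = 9.07e-05). The higher one was TUBA1C (dd_Smed_v6_1623_0_1), at 64.6, 61, 51.9 and 70.3 and 28, 29.2, 27.5 and 37.2 (1.00 ± 0.20, adjusted p = 0.00196). Other transcripts with the same match had other values: dd_Smed_v6_152_0_1, also TUBB4B, had means of 1889 ± 308 in X2 and 1472 ± 219.7 in Xins (0.36 ± 0.21, adjusted p = 0.183, and an adjusted p of 0.00448 with the block). ACTB (dd_Smed_v6_37_0_1), the most abundant actin, was at 5652 ± 1804 and 7857 ± 2155 (-0.49 ± 0.30, adjusted p = 0.208), and its sign turned after median-of-ratios scaling (0.28).

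The same comparison was made in other libraries, of planarians starved for 1 and 30 days. Of the 1471 transcripts higher in X2 at 7dS, 1047 (71.2%) were also called higher at 1dS, which is 71.9% of the 1456 called there (8.76% of those tested), and 2 were called lower. At 30dS 1312 (89.2%) were called higher, which is 83.5% of 1572 (9.17%). Of the 5293 lower ones, 4146 (78.3%) were called lower at 1dS and 3987 (75.3%) at 30dS, 88.6% of the 4679 (28.2%) and 94.7% of the 4210 (24.6%) called lower there, and none was called in the opposite direction. Among the 20 lists the largest shifts in median were in cytosolic HSP70 (2.14, 0.42 and 0.52 in order of time) and in tubulins and actins (-1.38, -0.09 and -0.20). With 5 tested members, the HSP70 median was at each time the value of 1 transcript, dd_Smed_v6_2221_0_1. TRiC had medians of 1.11, 1.00 and 1.09.

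Tested directly as a difference of differences over the 24 X2 and Xins libraries at q 0.1, 197 of 17270 transcripts (1.14%) had another X2-Xins difference at 7dS than at 1dS, 124 of them more positive at 7dS and 73 more negative. Under the replicate block this count was 1934 (11.2%), but the lowest correlation between libraries of the same number was 0.0142 at 1dS, under the threshold of 0.1 for pairing, so the data do not show that the numbers pair the 1dS libraries. cdk1 was one of the 197: its log2 difference fell from 2.94 at 1dS to 1.42 at 7dS, a change of -1.53 (adjusted p = 0.0115), and was 2.06 at 30dS. Its mean in X2 was 7.61 ± 1.2 at 1dS and 2.28 ± 0.818 at 7dS. In Xins cdk1 was at 0.115 ± 0.0718 and 0.199 ± 0.0952, near the floor of the scale. Its change therefore rests on its level in X2, and it passed the filter only through X2. dd_Smed_v6_8495_0_1, of the regulation of translational initiation, went from 3.75 to 2.18, a change of -1.57 (adjusted p = 0.00923). DNAJC27 had log2 differences of -3.73 at 1dS and -1.96 at 7dS, a change of 1.78 (adjusted p = 0.00645). Of tubulins and actins 3 were called, each more positive at 7dS: ACTB (dd_Smed_v6_37_0_1) changed by 1.8 (adjusted p = 0.0732), TUBA1A (dd_Smed_v6_2143_0_1) by 1.73 (adjusted p = 0.0824) and TUBA1C (dd_Smed_v6_508_0_1) by 1.56 (adjusted p = 0.0339). No TRiC, UPR, cytosolic HSP70, eEF1, eIF3 or glycolysis transcript passed this test without the block. The HSP70 transcript dd_Smed_v6_2221_0_1 changed by -1.72 (adjusted p = 0.475). With the block, 3 of 20 in the UPR and ER folding list passed, among them xbp1 (adjusted p = 0.0291) and calr (adjusted p = 0.0883). So did 2 of 5 cytosolic HSP70, 1 of 4 eEF1, 1 of 13 eIF3 and 7 of 10 glycolysis transcripts, and again none of TRiC. Between 7dS and 30dS limma called 0 of 17270 transcripts, with 153 at an unadjusted p under 0.05 (49 more positive and 104 more negative at 7dS), and 13 (0.0753%) with the replicate block.

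**Figure D5:**
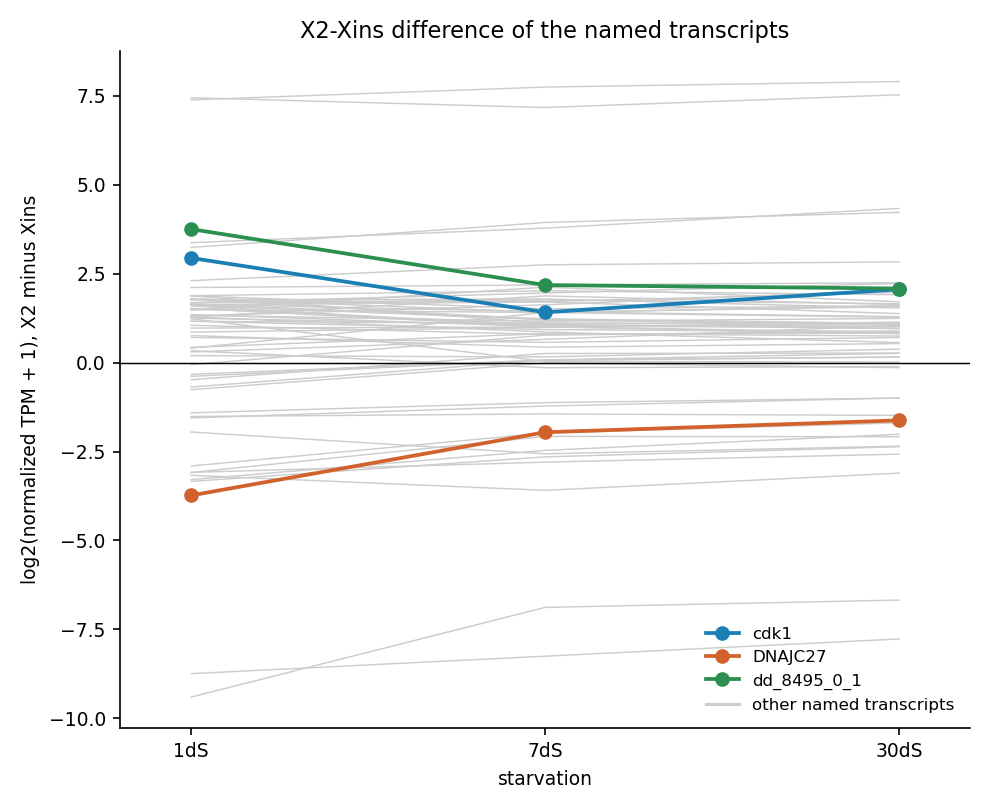
Log2 difference X2 minus Xins (y axis, log2 of normalized TPM + 1) at 1dS, 7dS and 30dS (x axis) of the named transcripts tested, 4 libraries per population and time. Coloured lines are cdk1 (2.94, then 1.42, then 2.06), dd_Smed_v6_8495_0_1 (3.75, then 2.18, then 2.08) and DNAJC27 (-3.73, -1.96 and -1.62), whose differences at 7dS and 1dS passed the test of the change, and grey lines are the other named transcripts. The mean of cdk1 in Xins was under 1 at each time, so its line follows its level in X2.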

How the data were processed

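The series holds RNA-seq of FACS-sorted planarian cells, 4 libraries for each of 3 populations and 3 times. There is 1 deposited file per population, and these give the authors' normalized TPM signal per transcript: reads were cleared of ribosomal RNA, pseudoaligned to the Dresden transcriptome with kallisto 0.43.0 per the submitters' processing notes and normalized with Sleuth, so library totals are not equal and the read depth behind a value is unknown. The authors normalized each population separately, so every library was rescaled here to a total of 1000000 before X2 and Xins were joined. Transcript IDs of the version 4 form are written in the equivalent version 6 form. The study's supplementary tables were used for IDs, symbols and list membership only, and columns of its own comparisons were not used.

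Transcripts with a mean of at least 1 over the 8 libraries were tested on log2(value + 1) with limma 3.58.1 (R 4.3.3, intensity trend, Benjamini-Hochberg adjustment) at q 0.01, and differences between times at q 0.1 over 24 libraries. Library properties were compared by exact two-sided permutation tests over 70 arrangements. The code was tested on simulated data. Deviations from the population means correlated at r = 0.755, 0.643, 0.750 and 0.837 between X2 and Xins libraries of the same replicate number (threshold 0.1). Between unlike numbers r ran from -0.694 to 0.416 (X2 replicate 3 with Xins replicate 1), so some unlike pairs also passed 0.1. The numbers were taken to pair the libraries at 7dS, and the fit with the replicate number as a block is given where it changes a call or moves a count by over 1.5 times. The labels do not say what a shared number stands for.

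Named transcripts are the genes the study names, the 5 largest called differences per direction among transcripts with a symbol, up to 3 called members of each list, and 2 called transcripts per direction without a symbol. All but the study's genes had to have a mean of at least 10. The largest differences with a symbol and the transcripts without one were taken only from those with no overlap between populations. Other members of a list are named after their values were seen. Members and lists were chosen with earlier results of these data known. Alternatives were other scalings, pseudocounts, filters, variance models and sets of libraries, the replicate block and leaving out each library. Tables and figures were made with Python 3.11.15 (pandas 2.3.3, matplotlib 3.10.9).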

Additional observations from a re-analysis of the deposited data

Results flagged for a closer look

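In 134 groups of 4 libraries 4 held a library whose gap to its neighbours was over Dixon's critical value, and chance gives about 1 in 20 such groups. pdia3 was at 39.6 normalized TPM in X2 replicate 4, against 189 to 220.3 in the other X2 libraries, and pdia12 was also low there, at 26.4 against 42.6 to 45.8. Both were lowest in replicate 4 of the other populations as well: pdia3 was at 51.3 in Xins (152 to 201 in the others) and 7.52 in X1 (105 to 150.2), and pdia12 at 32.7 in Xins (42.4 to 53.3) and 19.6 in X1 (23.5 to 33.5). Yars2 was at 9.44 in Xins replicate 2, against 12.9 to 13.3 in the other Xins libraries. The S phase transcript dd_Smed_v6_1583_0_1 was at 217 in X2 replicate 1, against 157 to 165 in the others.

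The X2-Xins difference at 7dS differed from that at 1dS for 197 transcripts by the test of the difference itself in limma at q 0.1. Of the named ones, cdk1 changed by -1.53 on the log2 scale (adjusted p = 0.0115), DNAJC27 by 1.78 (adjusted p = 0.00645) and dd_Smed_v6_8495_0_1 by -1.57 (adjusted p = 0.00923). The mean of cdk1 in Xins was under 1 at both times, so its change rests on X2. At 1dS 2 libraries of X2 listed more transcripts at 0 (10378 in replicate 1 and 7479 in replicate 3) than any X2 library at 7dS (2063 to 3924), and their part in these changes was not tested.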

How the results depend on the processing

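Besides 8 fits that each left out 1 library, 12 other settings were run, and 2 more were chosen after seeing the data: median-of-ratios scaling together with the replicate block, and leaving out replicate 4 of both populations, since both lay apart on the second principal component. The count of transcripts higher in X2 was 3542 with median-of-ratios scaling, 3981 with quantile normalization, 3508 with the replicate block and 6314 with that block and median-of-ratios scaling, and the count of lower ones was 8921 with the block. With 1 library left out they were 1114 to 1441 higher and 4362 to 5487 lower. The median log2 difference over all transcripts was 0.07 with median-of-ratios scaling, with or without the block, and 0.18 with quantile normalization. The count whose difference changed between 1dS and 7dS was 717 with deposited values, 552 with median-of-ratios scaling, 564 with quantile normalization, 314 with a pseudocount of 5, 1934 with the block, 3126 with both, and 114 to 217 with 1 library left out. Between 7dS and 30dS it was 4 (deposited values), 3 (quantile normalization), 2 (median-of-ratios scaling, and totals without the 10 most abundant transcripts), 1 (pseudocount 5, no filter, and a mean of at least 5), 13 (the block, with either scaling) and 0 to 1 with 1 library left out. Without replicate 4 the comparison at 7dS called 1393 higher and 5310 lower. calr turned to 0.05 with deposited values, 0.76 with median-of-ratios scaling (with or without the block) and 0.39 with quantile normalization, and pdia12 to 0.61 and 0.34 with these scalings. With 1 library left out, the uncalled differences of pdia3 (-0.42 to 0.62), calr (-0.31 to 0.31), dnajc3 (-0.25 to 0.44), bip-1 (-0.21 to 0.41), dnajb9 (-0.09 to 0.22), atf6 (-0.08 to 0.38), pdia12 (-0.27 to 0.04) and dnajb11 (-0.03 to 0.57) changed sign. Of 49 named transcripts that were called, 40 kept the call in every such fit that tested them and 9 lost it in some. The causes of these changes were not tested. For X2 against Xins at 7dS the block changed the calls of 7 named transcripts, each given in the text, and for the change from 1dS to 7dS it added calls for 13.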

Other observations

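A few transcripts with a symbol stood in no list. SH3GLB1, a membrane-bending protein, was at 25.1 ± 9.63 normalized TPM in X2 and 91.8 ± 69.7 in Xins (SD, n = 4), lower in X2 in every library but not called (log2 -1.62, adjusted p = 0.0197, and 0.000278 with the replicate block). PSMD5, a chaperone of proteasome assembly, was at 26 ± 6.3 and 13.7 ± 2.4 (log2 0.86, adjusted p = 0.0184, and 5.17e-05 with the block). SPT5, an elongation factor of RNA polymerase II, was at 37.5 ± 19.9 and 33.5 ± 17.8, with overlap (log2 0.16, adjusted p = 0.803, and 0.0532 with the block).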
